A study of Oryza sativa with 6 samples.

Results

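Squamosa promoter-binding protein-like (SPL) genes encode transcription factors found only in plants and green algae, and 9 rice members known for their effects on shoot architecture were described here in a list of PIF4-GFP peaks. The 9 genes were chosen by name and locus number, with earlier results of these data known: SPL3, SPL7, SPL8, SPL12, SPL13, SPL14, SPL16, SPL17 and SPL18. They are 9 of the 19 SPL genes of rice considered here, and 8 of them were among the 24592 loci that carried the 29513 listed peaks. Together the 9 genes had 11 peaks.

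The material was leaf tissue of potted rice that was 3 weeks old. A line overexpressing PIF4 fused to green fluorescent protein (PIF4-GFP, 3 samples) was compared with a GFP mock (3 samples). Both groups were kept in fluctuating light with drought, so that no plants under steady light or full water enter any comparison. The promoter that drives the transgene, the number of transgenic lines and whether replicates were separate plants are not stated in the labels. The series is presented as chromatin immunoprecipitation sequencing, but the labels of all 6 samples name total RNA. The deposited data are 1 list of peaks, without a mock list, and 6 tables of FPKM for 1177 genes, mostly transcription factors. Peak names start with PIF4-GFP1, which may stand for 1 library, so no value of a peak has a replicate error. The tissue could not be checked against leaf markers, because the values in the tables do not follow the genes named on their rows (given with the expression values).

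SPL proteins bind DNA through the SBP domain, a zinc-binding domain that recognises sites with the core GTAC. Many SPL transcripts carry a site for the microRNA miR156, which is abundant in young plants and keeps SPL activity low until the shoot matures. In rice the family sets the number of tillers, the branching of the panicle, the formation of the ligule and the size of the grain. PIF4 is a basic helix-loop-helix factor that acts below the phytochrome photoreceptors, which sense red and far-red light.

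The first question was which of the 9 genes had a listed peak, and where. A promoter peak, the list's own class for peaks near the transcription start, was present at 6 of 9 genes: SPL3, SPL8, SPL13, SPL16, SPL17 and SPL18. SPL7 had a peak at its transcription end and SPL12 a peak in its last exon, and neither had a promoter peak. SPL14 had no peak of any class. Of the 1177 genes that have expression values, 71.8% had a promoter peak and 77.4% a peak of any class, so that 6 of 9 lies near the first background and 8 of 9 somewhat above the second, a difference that few genes make up. With 1 list there is no test of these counts.

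**Figure D1:**
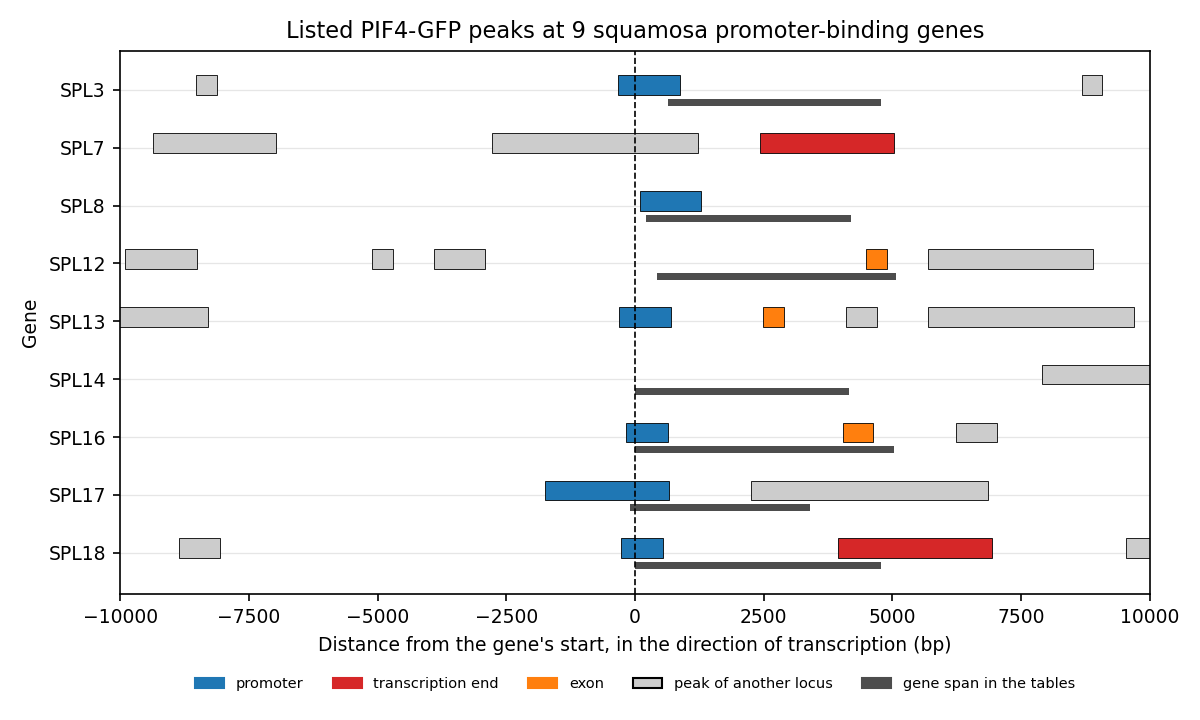
Listed PIF4-GFP peaks at the 9 genes, drawn in bp from each gene's start in the direction of transcription, with the gene's own peaks coloured by class, peaks that the list gives to another locus in grey, and the gene span of the expression tables as a thin bar for the 7 genes that have one. The start is the one implied by the list's distances, and for SPL14, which has no peak, the one in the tables. Promoter peaks stand at or just past the start of 6 genes, with that of SPL8 beginning 88 bp past it. A grey peak covers the start of SPL7, and the lanes of SPL12 and SPL14 have none at the start.

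SPL14, also named IPA1 (Ideal Plant Architecture 1), restrains tillering and promotes panicle branching, and SPL17 is its close paralogue and, like it, a target of miR156. The peak at SPL17 (LOC_Os09g31438) lay on chromosome 9 from 18921000 to 18923399, was 2400 bp wide and was centred upstream of the start, at -543 bp. It was the widest promoter peak of the 9 genes and the only one of their promoter peaks centred upstream. Of all 23278 promoter peaks, 75.5% were narrower and 10.7% were centred further upstream. SPL14 (LOC_Os08g39890, chromosome 8, minus strand, 25274541 to 25278696 in the tables) had no listed peak over the gene or within 1000 bp of its start.

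Listed peaks were also absent just around SPL14, over a longer stretch upstream than past its end. The nearest peak past its end belonged to LOC_Os08g39870 (25266800 to 25270799, 4000 bp wide) and was 3741 bp away. The nearest one upstream belonged to LOC_Os08g39930 (25302000 to 25302599) and was 23303 bp from the start. The nearest peak wholly upstream of the start was further off at SPL8 (26913 bp) and SPL17 (31544 bp), both with a promoter peak. The gap between the peaks on either side of SPL14 was 31200 bp, where the median gap between neighbouring listed peaks was 5600 bp. Gaps of at least that length made up 6.70% of the 29501 gaps, so it is long but not rare among them. Many gaps lie between peaks of the same gene, whereas this gap was chosen because it holds a gene without a peak. The share among gaps that hold such a gene was not computed. Peak numbers rise along each chromosome without exception, and 5 numbers, 43981 to 43985, fall inside this gap without being listed. The list holds 49.2% of the numbers up to 60035 and no peak classed as intergenic. Whether the 5 unlisted peaks lie near SPL14 was not tested, as they carry no coordinates here.

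**Figure D2:**
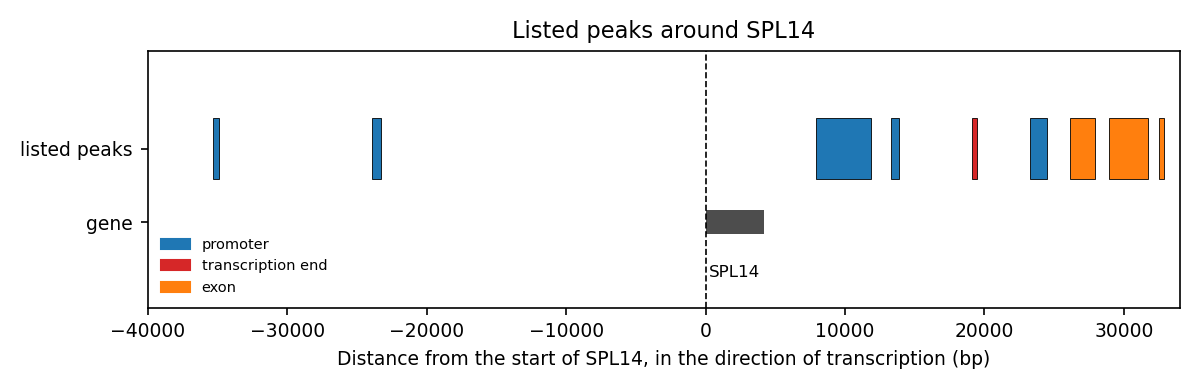
Listed peaks around SPL14, in bp from its start in the direction of transcription, coloured by class, with the gene as a dark bar. No listed peak lies between the one that ends 23304 bp upstream of the start and the one that begins 7897 bp downstream of it.

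SPL7 has been linked, with SPL14 and SPL17, to tiller number and panicle branching under the control of miR156. Its only assigned peak (LOC_Os04g46580, chromosome 4, 27617200 to 27619799) was 2600 bp wide, stood at the transcription end and was centred 3723 bp from the start. The start of SPL7 implied by that distance, 27614776, nevertheless lay inside a peak. That peak, 4000 bp wide from 27612000 to 27615999, was assigned to the promoter of the neighbouring locus LOC_Os04g46570, on the opposite strand. It reached from -2776 bp, upstream, to 1223 bp, downstream of the SPL7 start. SPL7 therefore lacks a promoter peak by assignment and not by position, and the list cannot tell which of the neighbours the peak belongs to.

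SPL3 and SPL12 are close paralogues, and SPL3 is known to take part in crown root development. The promoter peak of SPL3 (LOC_Os02g04680) was 1200 bp wide (chromosome 2, 2105400 to 2106599) and was centred 273 bp downstream of the start. SPL12 (LOC_Os06g49010) had a 400 bp peak on chromosome 6 from 29703800 to 29704199, in exon 7 of 7 and 4688 bp from the start. No listed peak of any locus lay within 1000 bp of the SPL12 start, and the nearest one upstream, of LOC_Os06g49020, was 2912 bp away. Its number, 35003, follows directly on that of the SPL12 peak, 35002, so no unlisted peak stands between them. By position, then, SPL12 and SPL14 are the members with no listed peak near the start.

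SPL8 is LIGULELESS1, the factor needed to form the ligule and auricle at the joint of leaf blade and sheath. Its single peak (LOC_Os04g56170, chromosome 4, 33488600 to 33489799) was 1200 bp wide and was centred 687 bp downstream of the start, the furthest downstream of the 6 promoter peaks. It began 88 bp past the start implied by the list, and it took in the start given in the tables, 33488722. The list's and the tables' starts differed by up to 642 bp for the 6 members that have both, and most for SPL3. The starts implied by the list were rounded to a whole bp, so a difference of 1 bp is not resolved. Whether a peak covers a start is therefore uncertain by up to that much for these 6, and SPL8 is the one whose answer changes. SPL7, SPL13 and SPL14 have only 1 source for the start, so the starts could not be compared for them. Among the other SPL genes the difference reached 2583 bp, at SPL15.

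SPL16 (GW8), SPL18 and SPL13 (GLW7) are known for effects on grain size: SPL16 promotes grain width, SPL13 grain length, and SPL18 grain weight. Each had a narrow promoter peak that spanned the start and was centred just past it, and a further peak at its far end. SPL16 (LOC_Os08g41940) had its promoter peak on chromosome 8 from 26501000 to 26501799, 800 bp wide and centred 232 bp downstream. Its other peak, 600 bp wide from 26505200 to 26505799, lay in exon 3 of 3, 4332 bp from the start.

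SPL18 (LOC_Os09g32944), the close paralogue of SPL16, had a promoter peak of the same width, 800 bp, on chromosome 9 from 19643200 to 19643999, centred 136 bp downstream. Its further peak, at the transcription end, was 3000 bp wide from 19647400 to 19650399 and was the widest of the 11 peaks. At SPL13 (LOC_Os07g32170) the promoter peak was 1000 bp wide (chromosome 7, 19102600 to 19103599) and was centred 195 bp downstream. Its exon peak, 400 bp wide from 19100400 to 19100799, lay in exon 2 of 2, 2695 bp from the start.

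The median width of the 6 promoter peaks was 1100 bp (range 800 to 2400 bp), beside 1400 bp over all promoter peaks and 1600 bp over those of the genes in the expression tables. Their centres had a median distance of 213.5 bp downstream of the start (range -543 to 687 bp), beside 198 bp over all promoter peaks and 346 bp over those of the genes in the expression tables. Of the 6, 5 were centred downstream, beside 69.2% of all promoter peaks and 79.3% of those of the genes in the expression tables. SPL16 and SPL18 had the narrowest of them, and 15.8% of all promoter peaks were narrower still. The widths of all 11 peaks are multiples of 200 bp, so SPL13 differs from SPL16 and SPL18 by a single step of the grid.

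**Figure D3:**
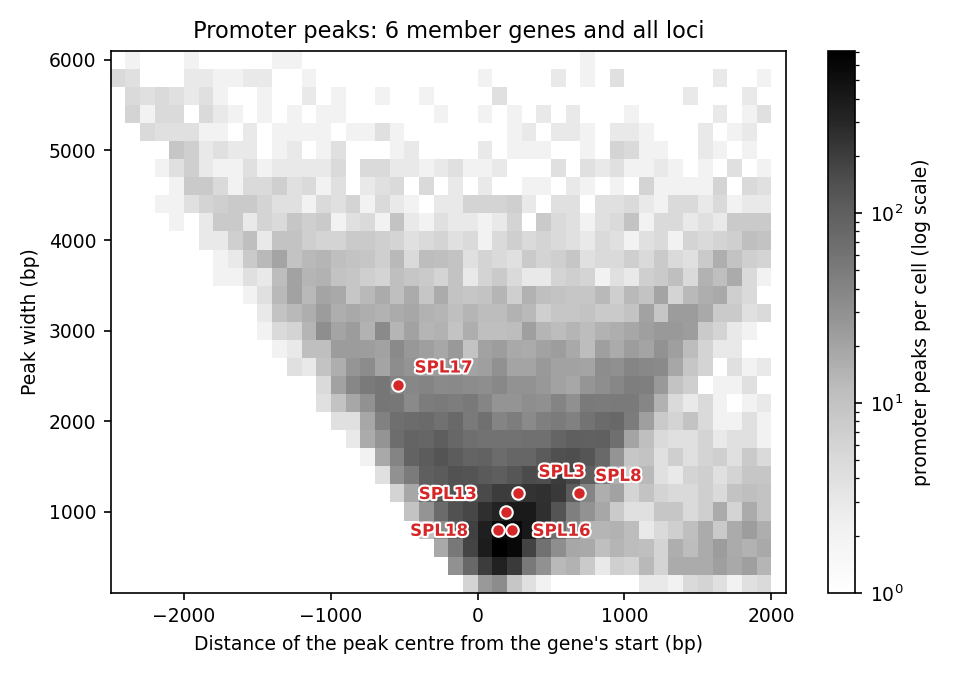
Width of promoter peaks in bp against the distance of their centre from the start in bp (negative values upstream), with all loci as grey cells of 100 by 200 bp on a log colour scale and the 6 member genes as red points; distances below -2500 bp and widths above 6000 bp are left out. SPL3, SPL8, SPL13, SPL16 and SPL18 lie at 800 to 1200 bp wide and downstream of the start, and SPL17 at 2400 bp wide and upstream.

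Peaks at the far end of the gene were found at 5 of the 8 members with a peak: in the last exon of SPL12, SPL13 and SPL16, and at the transcription end of SPL7 and SPL18. Of all loci with a peak, 16.2% had a peak of these kinds, and 20.3% of the 911 genes of the expression tables that had a peak. The trait was not particular to the members. Among genes with a peak it was listed for 3 of 10 other SPL genes and 3 of 7 genes that act with SPL14 or SPL16. It was also listed for 2 of 4 meristem genes and 2 of 3 AP2-like genes (these lists are described below). Both a promoter peak and a far-end peak were listed for 3 of the 8 members with a peak, SPL13, SPL16 and SPL18. The same held for 3 of 10 other SPL genes and for 11.4% of all loci with a peak. More than 1 peak was listed for the same 3 of 8 members, beside 17.7% of all loci with a peak. All 3 exon peaks of the members were in the last exon, beside 71.1% of all 2227 exon peaks. No exon peak in the list was centred within 2000 bp of a start, whereas peaks at transcription ends began at 657 bp, and gene length was not adjusted for.

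The share at the far end depends on which locus a peak is given to. Counted by position, a listed peak of any locus lay within 1000 bp of the gene's end, as the tables place it, at 4 of the 7 members with a table entry. These were SPL12, SPL16, SPL17 and SPL18, and 61.2% of the 1177 genes had such a peak. For SPL17 the peak was that of the neighbouring locus LOC_Os09g31434, 4600 bp wide, which covered all 2001 bp around its end. At SPL3, SPL8 and SPL14 no listed peak lay within 1000 bp of the end. SPL7 and SPL13, which have a far-end peak by assignment, have no table entry and are not in this count. By position the 7 members counted are thus near the background at this end too.

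Counted by position at the start, 5 of the 7 members with a table entry had their table start inside a listed peak, beside 66.9% of the 1177 genes. Listed peaks covered 1754 of the 2001 bp around the table start of SPL17, 1200 bp at SPL3, 1123 bp at SPL8, and 800 bp each at SPL16 and SPL18. The median over the 1177 genes was 1065 bp. At SPL12 and SPL14 the covered length was 0 bp. A listed peak of any locus touched the gene or the 2000 bp upstream at 6 of the 7 members, all but SPL14, beside 82.3% of the 1177 genes. Within 50 kb of the start, the number of listed peaks ran from 9 at SPL8 and SPL16 to 18 at SPL18, with 11 at SPL14, so the wider region of SPL14 lay within the range of the other members.

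The 10 other SPL genes all had a promoter peak, so that 16 of the 19 SPL genes had one and 18 of 19 had a peak of any class, beside 71.8% and 77.4% of the 1177 genes. SPL7, SPL12 and SPL14 made up the 3 without a promoter peak, and SPL14 was the only one of the 19 without a peak of any class. The widest promoter peaks of the other genes were those of SPL2 (3400 bp), SPL9 (3000 bp), SPL15 (2800 bp) and SPL10 (2400 bp). The SPL9 peak was centred upstream of the start, at -468 bp, and the SPL2 peak 1766 bp downstream. Over the 10 promoter peaks the median width was 1500 bp and the median distance 346 bp downstream. A second peak, in the last exon, was listed for 3 of these 10 genes, beside 17.7% of all loci with a peak that had more than 1. They were SPL5, SPL6 and SPL19, named after their values were seen, with widths of 400, 600 and 600 bp.

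**Figure D4:**
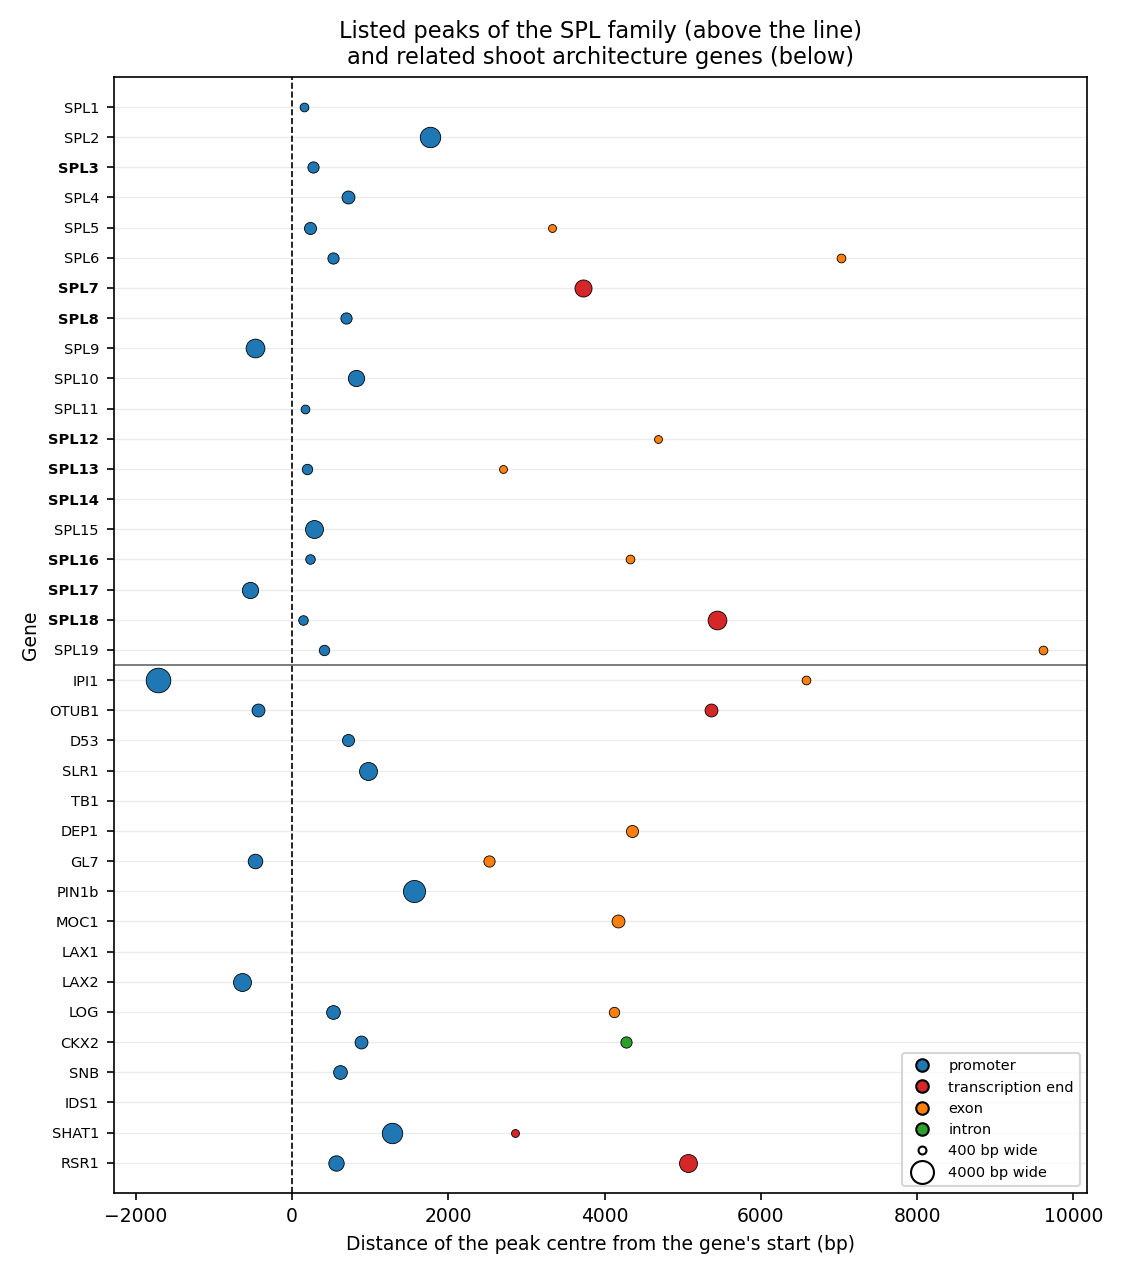
Distance of each listed peak's centre from its gene's start in bp, for the 19 SPL genes (above the line, the 9 members in bold) and 17 related shoot architecture genes (below), with colour for the class and dot size for the width. Empty lanes mark SPL14, TB1, LAX1 and IDS1, the genes with no listed peak assigned to them.

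Genes known to act with SPL14 or SPL16 had a promoter peak in 6 of 8 cases and a peak of any class in 7 of 8, beside 71.8% and 77.4% of the 1177 genes. IPI1 (LOC_Os01g24880), a ubiquitin ligase that acts on SPL14, had a promoter peak of 4400 bp centred upstream of the start, at -1716 bp, and a last-exon peak of 600 bp. PIN1b (LOC_Os02g50960), an auxin efflux carrier, had a promoter peak of 3800 bp centred 1563 bp downstream. SLR1 (LOC_Os03g49990), the DELLA repressor of gibberellin responses, had a promoter peak of 2800 bp, and GL7 (LOC_Os07g41200), a grain shape gene repressed by SPL16, one of 2000 bp. GL7 also had a peak of 1200 bp in exon 3 of 5.

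TB1 (LOC_Os03g49880), a target of SPL14 that holds back tiller buds, had no peak assigned to it. No start was available for TB1, so whether a neighbour's peak covers it was not checked. DEP1 (LOC_Os09g26999), a panicle gene also targeted by SPL14, had only a last-exon peak of 1400 bp. The start of DEP1 lay inside a peak assigned to LOC_Os09g26980, as was seen at SPL7. TB1 and DEP1 were named after their values were seen.

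Among the genes of axillary and inflorescence meristems, 3 of 5 had a promoter peak and 4 of 5 a peak of any class, against the same backgrounds of 71.8% and 77.4%. LAX2 had a promoter peak of 2800 bp, LOG, which activates cytokinin, one of 1800 bp, and CKX2, which breaks cytokinin down, one of 1600 bp. LOG also had a last-exon peak of 1000 bp and CKX2 an intron peak of 1200 bp. MOC1, needed to form tiller buds, had only a last-exon peak of 1600 bp, and LAX1 had none assigned to it (named after its values were seen). No start was available for LAX1, so whether a neighbour's peak covers it was not checked. The AP2-like targets of miR172, a microRNA that rises as miR156 falls, had a promoter peak in 3 of 4 cases: SHAT1 (3400 bp), RSR1 (2200 bp) and SNB (1800 bp). SHAT1 and RSR1 also had peaks at the transcription end, 400 and 2800 bp wide. IDS1, the remaining gene, named after its values were seen, had no peak of its own, but its start in the tables lay inside a peak assigned to LOC_Os03g60419. Beside the 3 of 4 stands the 71.8% of the 1177 genes with a promoter peak.

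Transcript levels in PIF4-GFP and GFP mock could be compared only for rows that carry the members' names. The FPKM values resolved into whole reads and a whole length per row in all 917 rows that had values in at least 4 samples. The lengths and library totals were the smallest that fit, and 916 of the lengths were multiples of 3. These lengths did not follow the named genes. Their Spearman correlation with the span of the named gene was 0.024 across the 917 rows, which are not independent. In 191 rows (20.8%) the length was larger than the whole gene. The row named for SPL17 (Os09g0491532) is one of these, with a length of 4422 bp for a gene that spans 3494 bp. The values below therefore belong to rows, not to identified transcripts.

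Of the 7 rows named for members, 3 were listed at 0 in all 6 libraries, those of SPL12, SPL14 and SPL18, as were 20.1% of all 1177 rows. SPL7 and SPL13 are not among the 1177 genes. The SPL3 row (Os02g0139400) had 0.0795, 0.144 and 0.302 FPKM in PIF4-GFP replicates 1 to 3 and 0.169, 0.170 and 0.346 FPKM in the mock replicates. The groups overlapped. With the smallest fitting length, the values stand for 1, 2 and 4 reads and for 2, 2 and 4 reads. These are too few for any comparison. The smallest fitting library totals ran from 14933740 to 17919095 reads.

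The row named for SPL8 (Os04g0656500) had 64.6, 71.5 and 73.7 FPKM in PIF4-GFP and 72.5, 79.3 and 83.7 FPKM in the mock. The highest PIF4-GFP library lay above the lowest mock library, so the groups overlapped. The log2 difference, PIF4-GFP minus mock on the log2(FPKM + 1) scale, was -0.16 (SE 0.08, limma adjusted p = 0.895 over 847 rows, 95% interval -0.34 to 0.01).

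The row named for SPL16 (Os08g0531600) had 28.6, 28.2 and 31.1 FPKM in PIF4-GFP and 30.9, 31.4 and 31.9 FPKM in the mock. PIF4-GFP replicate 3 lay within the mock range and the other PIF4-GFP libraries below it. The log2 difference was -0.10 (SE 0.08, limma adjusted p = 0.895, 95% interval -0.27 to 0.08).

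The row named for SPL17 had 64.3, 65.4 and 68.3 FPKM in PIF4-GFP and 72.2, 66.5 and 70.1 FPKM in the mock, again with overlap. Its log2 difference was -0.07 (SE 0.07, limma adjusted p = 0.895, 95% interval -0.23 to 0.08) and became 0.0045 once each library was centred on its median. The exact permutation test, two-sided, gave p = 0.2 for each of these 3 rows, where 3 against 3 samples cannot go below 0.1.

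All 3 tested rows had the lower value in PIF4-GFP before centring, as had 79.5% of the 847 tested rows, and their median difference was -0.10 beside -0.06 over all tested rows. With limma 0 of the 847 rows (0%) passed the threshold of 0.05 on adjusted p, and 33 were under 0.05 before adjustment. Leaving out PIF4-GFP replicate 2 passed 2 rows, and in no setting did a row named for an SPL gene pass. Of the 10 tested SPL rows, only that of SPL2 (Os01g0922600) had groups that did not overlap. It had 2.89, 2.82 and 3.06 FPKM in PIF4-GFP and 3.54, 4.22 and 3.57 FPKM in the mock (limma adjusted p = 0.895), and 7.91% of tested rows were separated in that direction. It was named after its values were seen.

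**Figure D5:**
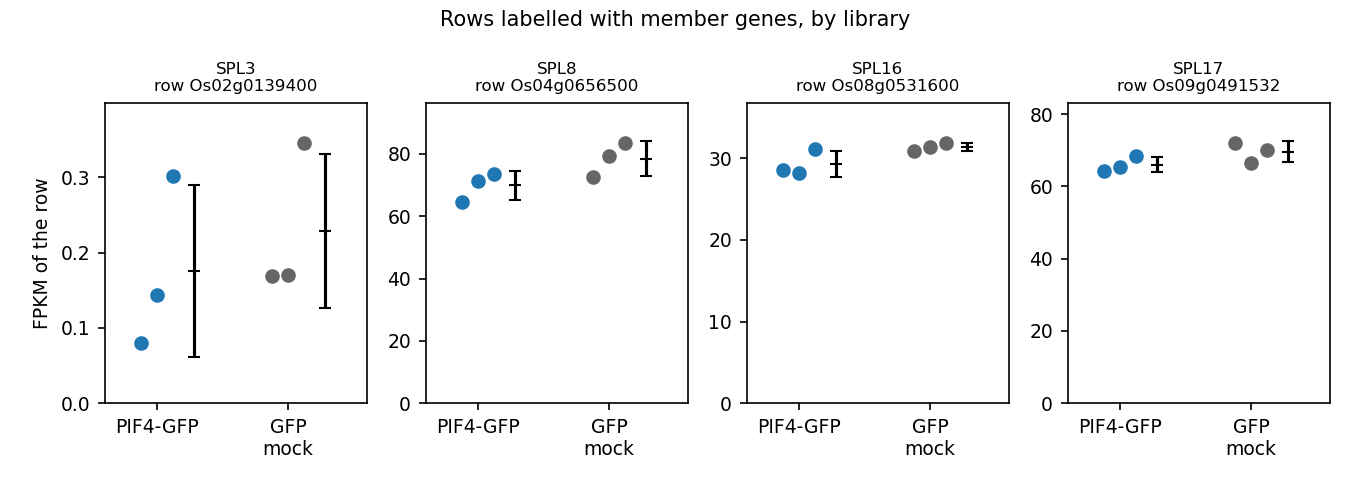
FPKM of the rows named for SPL3, SPL8, SPL16 and SPL17 in each library (points), with the mean ± SD of each group of 3 beside them; each panel has its own axis from 0. In all 4 panels the PIF4-GFP and mock values overlap.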

How the data were processed

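Per the labels, 6 leaf libraries fall into PIF4-GFP and GFP mock, 3 each. Bowtie 0.12.2, HISAT2 2.0, StringTie 1.3.0 and the mouse build mm8 are listed, without a role, in the submitters' processing notes. For the rice build, the peak caller and its threshold, the sources used here give nothing. The deposited peak list gives coordinates (both ends were counted in the widths here), a class and, as its only score, a signed distance to the start. The deposited FPKM values, a unit read from the values, come from the authors' own counting.

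Peaks were joined by locus number. A gene's start was derived from the distance and the peak's centre. FPKM values were resolved into the smallest whole totals and lengths that fit, and the reads that follow from them (tolerance 0.0001). On log2(FPKM + 1), limma 3.58.1 in R 4.3.3 tested the 847 rows that reached 1 FPKM in at least 3 samples, using its mean-variance trend and Benjamini-Hochberg adjustment (threshold 0.05). Both steps were tested on simulated data. Other tools were pandas 2.3.3, numpy 2.4.6 and scipy 1.17.1 under Python 3.11.15, with figures from matplotlib 3.10.9. Since replicates may be technical, p-values cover only the spread among the samples at hand.

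The members and lists were chosen with earlier results of these data known. The rule named all 9 members and, in each other list, at most 4 genes with the widest peaks. Outside it, SPL5, SPL6, SPL19, TB1, DEP1, LAX1 and IDS1 and the SPL2 row's values were named after the data were seen. A search for genes like SPL14 was not made, since it has no peak. Of the 9 members, 6 matched RefSeq (assembly ASM3414082v1) through the tables, 4 of them under the same SPL name. Promoter and microRNA sequences were not used here.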

Additional observations from a re-analysis of the deposited data

How the results depend on the processing

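The count of members with a promoter peak, 6 as deposited, was 4 with peaks of 1000 bp or wider and 6 with distances within 1000 bp. It was also 6 when starts inside a peak of any locus were counted, an alternative chosen after seeing the data, which adds SPL7 and drops SPL8. The count with a peak of any class went from 8 to 6 under both of the first alternatives. The shares of the 1177 genes under the width and distance limits were not computed. The lower counts therefore cannot be read as a trait of the members. A peak of any locus over the gene or the 2000 bp upstream was found at 6 of the 7 members with a table entry, where 82.3% of the 1177 genes had one. The median width stayed between 1100 and 1200 bp and the median distance between 213.5 and 234 bp.

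The number of rows passing limma was 0 with a pseudocount of 0.1, without a filter and after centring, 1 with the replicate number as a block, and 0 to 2 when 1 library was left out. The deviations of same-numbered libraries correlated at 0.11, 0.16 and -0.09. Libraries with different numbers were not compared, so these values do not settle whether replicate numbers pair the samples. Over the 10 alternatives the log2 difference ran from -0.22 to -0.09 for the SPL8 row, from -0.14 to -0.02 for SPL16 and from -0.11 to 0.0045 for SPL17, the last after centring. Their limma adjusted p values were at least 0.289, 0.363 and 0.427. SPL3 was not tested, at 1 to 4 reads per library by the smallest fitting length.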
